A study of Mus musculus with 36 samples.

Results

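The soleus muscles of old and of young mice were compared after both had been unloaded. The comparison rests on 10 of the 36 libraries of the study, chosen by their labels alone: 6 old mice, aged 22 to 24 months, and 4 young mice, aged 6 months. Their hind limbs had been kept off the ground for 10 days. All were male C57BL/6J mice on standard chow, no transgene or drug was involved, and each library held the total RNA of 1 mouse's soleus, depleted of ribosomal RNA. Old and young control mice of the same ages, 9 libraries each, bore weight throughout and show the difference between the ages without unloading. The 8 mice that were reloaded after unloading entered only the shared estimate of the spread.

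The soleus is a postural calf muscle in which slow, oxidative fibres are abundant. When it no longer bears load it shrinks, slows its protein synthesis and switches on genes of faster fibre types. Age acts on the same muscle in other ways, since motor axons are lost and some fibres lose their nerve and are reinnervated. Fast fibres are the ones most affected, and the collagen made by fibroblasts turns over more slowly. The comparison asks how the muscle of an old mouse differs from that of a young mouse once both have been put through the same disuse.

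Depth was even, at 32.2 to 36.2 M reads in genes for the unloaded mice, and 15031 of 21156 genes had enough reads to be tested. Levels are CPM values, reads of a gene per M reads of its library, which compare 1 gene between libraries and not different genes with each other. Differences are log2 fold changes of old over young ± SE, and called means an adjusted p under 0.05 in edgeR's quasi-likelihood test (Benjamini-Hochberg over all genes tested). The tissue label held in both groups: Myh7, the slow myosin heavy chain, stood at 11783 to 17040.1 CPM in old unloaded mice and 9077 to 12080.2 CPM in young unloaded mice. Alb, a liver gene, reached 36.2 CPM in old mouse 6 and 39.6 CPM in young mouse 2. The summed liver list reached 129 and 140.4 CPM there, against 24.9 to 53.1 CPM in the other 8 libraries. The count of all calls and many counts of lists are therefore also given without these 2 mice. The share of reads taken by the giant sarcomere gene Ttn was 23.2% ± 0.822 in old unloaded mice and 22.6% ± 0.220 in young unloaded mice (SD, n = 6 and 4; exact two-sided permutation p = 0.219).

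Of the 15031 genes, 698 were higher (4.64%) and 776 were lower (5.16%) in old than in young unloaded soleus, 1474 in all (9.81%). Over genes of all levels, changes of at least 2-fold were mostly rises, 178 against 48 falls. Among called, not predicted genes averaging 8 CPM or more, the smallest of the 12 largest rises was 1.12 (Mettl21c). The smallest of the 12 largest falls there was -1.03 (Plcd4). All other called rises above 1.12 were thus in genes of lower level or in predicted genes. The count of 1474 called genes depended on the libraries: it was 789 without young mouse 2 and 620 without both mice high in Alb. In whole muscle, fewer cells of a type and less RNA per cell cannot be told apart.

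Much of what separated the ages after unloading also separated them without it. Between old and young control mice 1824 genes were higher (12.1%) and 1737 lower (11.6%). Of the 1474 genes called after unloading, 896 were called in the controls too, and 893 of these went the same way, which is 60.6% of the unloaded and 25.1% of the control list. The 2 comparisons share no library, only the estimate of the spread. The other 578 genes were called after unloading alone, but this does not show that their age difference was another one. A direct test of the difference between the age effects called 0 genes with edgeR, where 1487 genes had an unadjusted p under 0.05 and the smallest adjusted p was 0.0696, and 8 with DESeq2.

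**Figure D1:**
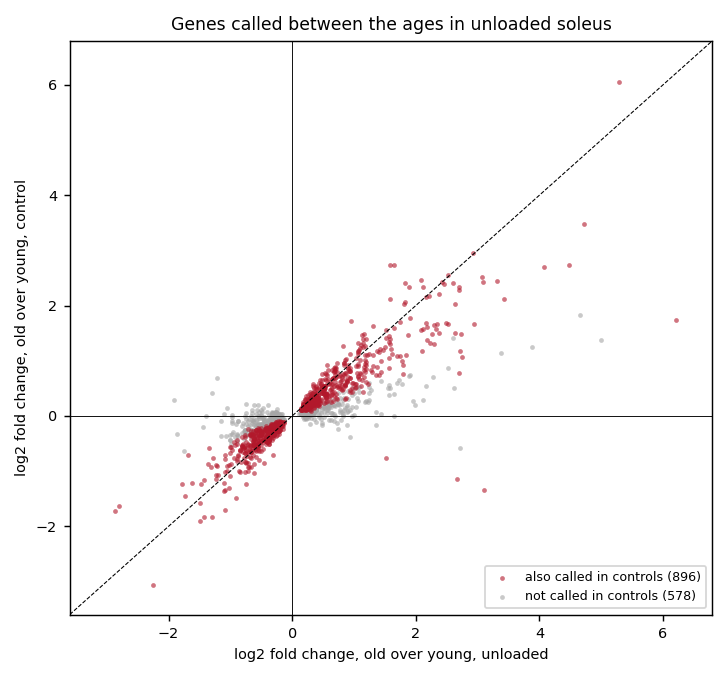
Log2 fold change of old over young in unloaded soleus (x axis) and in control soleus (y axis) for the 1474 genes called after unloading. Each point is a gene, red points were also called in controls, and the dashed line marks equal values. All but 3 of the 896 red points lie in the quadrants of like sign.

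Among genes that averaged 8 CPM or more, the 12 largest rises were led by a stress-responsive sarcomere gene and a G protein gene. Ankrd1, which encodes a stretch- and stress-responsive ankyrin repeat protein of the sarcomere, lies on chromosome 19, 36111965 to 36119845 (mm10, as deposited). It was at 15.9 to 75.2 CPM (median 30.7) in old unloaded mice, against 8.73, 7.49, 5.53 and 7.01 CPM in young unloaded mice. It rose by 2.52 ± 0.54 (adjusted p = 0.00256), with old mice 4 and 6 far above the others and no overlap between the groups. In controls it rose with age by 1.67 ± 0.35. Gnal, the stimulatory G protein alpha subunit first known from olfactory neurons, was at 16.1 to 42.7 CPM (median 22.4) in old mice, against 5.34, 4.87, 4.56 and 4.76 CPM in young mice. The rise of 2.45 ± 0.27 (adjusted p = 4.49e-07) left a wide gap between the groups, and in controls Gnal rose by 2.39 ± 0.19. Its mean was 26.6 ± 10.1 CPM in old unloaded mice and 27.1 ± 10.3 CPM in old controls (SD, n = 6 and 9). Prkcz, the atypical protein kinase C zeta, had 11.4 to 17.8 CPM (median 16.0) in old mice, against 5.02, 6.66, 4.73 and 4.31 CPM in young mice. The groups did not overlap, and the rise was 1.60 ± 0.17 (adjusted p = 2.45e-07). In controls Prkcz rose by 1.22 and was called.

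Ddit4 and Gadd45g, both induced by cell stress, were higher in every old than in any young unloaded mouse. Ddit4, also called REDD1, restrains the growth kinase complex mTORC1. It had 21.7 to 47.9 CPM (median 30.2) in old mice, against 6.46, 11.6, 11.6 and 9.96 CPM in young mice. It rose by 1.69 ± 0.32 (adjusted p = 0.000803). Gadd45g, of the growth arrest and DNA damage family, had 38.6 to 83.6 CPM (median 44.1) in old mice, against 11.3, 17.5, 14.7 and 22.9 CPM in young mice. It rose by 1.59 ± 0.32 (adjusted p = 0.00136). In controls neither gene was called: the age difference of Ddit4 was 0.60 ± 0.23 (adjusted p = 0.0556) and that of Gadd45g 0.51 ± 0.23 (adjusted p = 0.104). The age differences after unloading exceeded those in controls by 1.09 ± 0.39 and 1.08 ± 0.38, at unadjusted p of 0.0076 and 0.00807 (adjusted p = 0.357 for both), so the difference was not called. Old mouse 1 was the highest of the 10 for both genes, and young mouse 1 the lowest.

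The other large rises were of several kinds. Myl4, an atrial and embryonic myosin light chain, rose by 1.16 ± 0.28 (16.7 ± 3.38 CPM in old and 7.45 ± 1.37 CPM in young unloaded mice; SD, n = 6 and 4). Scn3b, a sodium channel beta subunit, rose by 1.20 ± 0.29 (10.6 ± 2.46 and 4.62 ± 0.986 CPM). Lgals3, the lectin galectin 3 made by macrophages among other cells, rose by 1.24 ± 0.39 (11.3 ± 1.97 and 4.78 ± 0.755 CPM). Mettl21c, a muscle lysine methyltransferase, rose by 1.12 ± 0.33 (37.3 ± 16.4 and 17.2 ± 4.08 CPM). Mamdc2, an extracellular matrix protein, rose by 1.22 ± 0.36 (14.3 ± 12.0 and 6.12 ± 1.04 CPM). In controls Myl4, Scn3b and Mettl21c were called too (0.88, 1.39 and 1.29), while Lgals3 (0.60) and Mamdc2 (0.25) were not. Mamdc2 and Mettl21c overlapped between the groups: old mouse 1 had 36.9 CPM of Mamdc2, while old mice 5 and 6, at 5.92 and 5.99 CPM, lay among the young. Lgals3 lost its call without old mouse 2 or 3 or any 1 of the 4 young mice (adjusted p 0.0524 to 0.118). Mettl21c lost it without old mouse 1 or 2 or young mouse 2, 3 or 4 (adjusted p 0.052 to 0.1). Mamdc2 lost it without old mouse 1 or 2 or young mouse 2, 3 or 4 (adjusted p 0.0525 to 0.129). Without old mouse 1 its difference was 0.68, and it was not called with only the groups compared in the fit (adjusted p = 0.119).

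**Figure D2:**
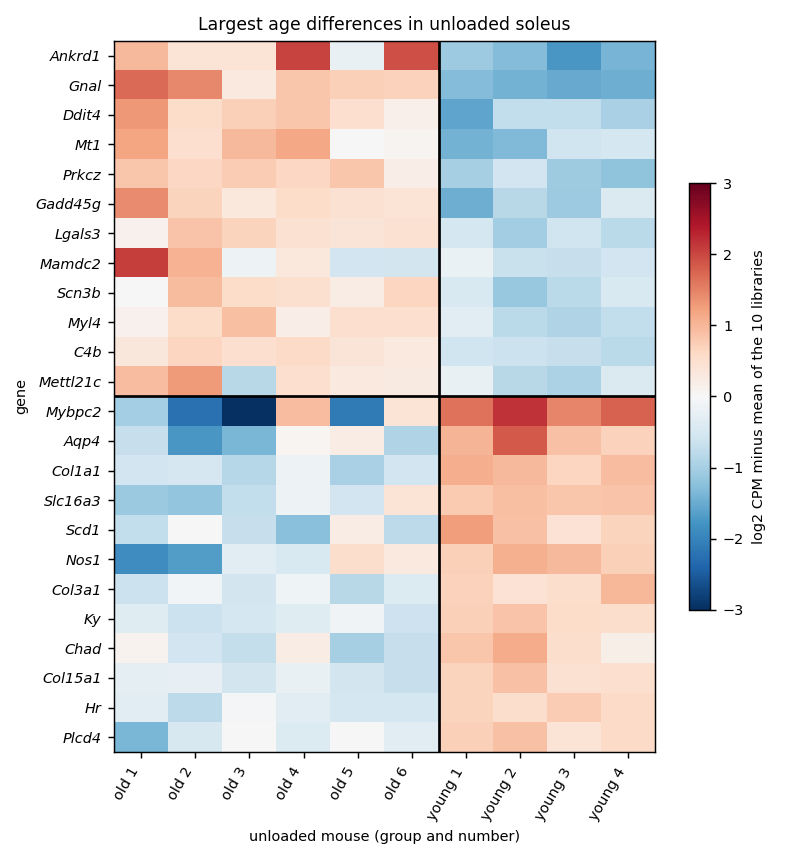
Level of the 12 genes with the largest rises (above the horizontal line) and the 12 with the largest falls (below it) in each of the 10 unloaded mice, as log2 CPM minus the gene's mean over these libraries. Old mice stand left of the vertical line and young mice right of it. Gnal and Prkcz are higher in each old mouse, while Mamdc2 is high in old mouse 1 and Mybpc2 is lowest in old mouse 3.

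Several genes that defend against oxidants and metals were higher in old unloaded soleus. Of 22 tested genes in a list of targets of the transcription factor Nrf2 and metallothioneins, 9 rose and 1 fell. Of all genes 4.64% rose and 5.16% fell. The list's median was 0.31 against 0.00 over all genes. Nqo1, a quinone reductase, was at 63.8 to 126 CPM (median 87.3) in old mice, against 45.0, 34.5, 54.0 and 46.2 CPM in young mice. The groups stood apart and the rise was 1.06 ± 0.17 (adjusted p = 0.000187). Gsta4, a glutathione transferase that removes a product of lipid peroxidation, rose by 0.68 ± 0.13 (19.5 ± 1.24 and 12.2 ± 2.31 CPM in old and young). Srxn1, which repairs oxidised peroxiredoxins, rose by 0.79 ± 0.17 (64.0 ± 10.7 and 37.0 ± 12.2 CPM), though young mouse 2 reached into the range of the old mice. Glutathione reductase, Gsr, rose by 0.31 ± 0.07, and Fth1, the ferritin heavy chain, fell by 0.35 ± 0.10. In controls 7 of the list rose and 2 fell, beside 12.1% and 11.6% of all genes, with Nqo1 up by 0.91 ± 0.12. The count of rises in the list was 5 without young mouse 1, 3 without young mouse 2, and 3 without both mice high in Alb. Nqo1, Gsta4 and Srxn1 were called with any 1 mouse left out. Gsr lost its call without young mouse 2 (adjusted p = 0.0557). Fth1 lost it without young mouse 2 or 3 (adjusted p = 0.0661 and 0.0583).

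The metallothioneins Mt1 and Mt2, small cysteine-rich proteins that bind zinc and copper, are neighbours on chromosome 8 and are classically switched on by the metal-sensing factor MTF-1 and by glucocorticoids. Mt1 was at 19.1 to 43.8 CPM (median 32.4) in old unloaded mice, against 7.18, 7.64, 12.7 and 13.3 CPM in young unloaded mice. It rose by 1.64 ± 0.44 (adjusted p = 0.0153). Mt2 was at 5.92 to 16.6 CPM (median 8.95) in old mice, against 1.52, 2.27, 2.55 and 2.00 CPM in young mice. It rose by 2.28 ± 0.73 (adjusted p = 0.0405). Neither gene overlapped between the groups. In controls the age difference was 0.39 ± 0.31 for Mt1 and 0.70 ± 0.49 for Mt2, neither called, and the direct test gave unadjusted p of 0.0237 and 0.0753. Mt1 lost its call without young mouse 1 or 2 (adjusted p = 0.0617 and 0.0657). Mt2 lost it without old mouse 1, 3 or 4 or any 1 of the 4 young mice (adjusted p 0.0573 to 0.112). Because both genes rose, the 250 bases before their RefSeq starts (build GRCm38.p6, plus strand) are given here in lower case, with matches on either strand to the metal response element core, spelled TGCGCNC or TGCACNC, in capitals. The window of Mt1 is chr8:94178839-94179088 and that of Mt2 is chr8:94172368-94172617.
Mt1: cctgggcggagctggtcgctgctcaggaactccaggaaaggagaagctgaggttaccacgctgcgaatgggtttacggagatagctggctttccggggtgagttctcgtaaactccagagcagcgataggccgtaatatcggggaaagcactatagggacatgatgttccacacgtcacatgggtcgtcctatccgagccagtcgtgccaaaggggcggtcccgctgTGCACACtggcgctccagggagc
Mt2: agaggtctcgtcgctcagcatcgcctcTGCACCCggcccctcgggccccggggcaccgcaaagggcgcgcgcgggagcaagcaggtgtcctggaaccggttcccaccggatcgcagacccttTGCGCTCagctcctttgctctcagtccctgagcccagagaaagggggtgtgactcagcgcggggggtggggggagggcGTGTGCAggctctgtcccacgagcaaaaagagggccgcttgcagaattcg
Mt1 held 1 match, starting 23 bases before the start, and Mt2 held 3, starting 223, 128 and 50 bases before it. Of 32851 promoter windows of the same length, 21.4% held at least 1 match, 5.17% at least 2 and 1.26% at least 3. A match describes the letters of the window and not a site in use. Bases after the RefSeq start were not searched, so the counts of the 2 genes are not those of their whole promoters.

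**Figure D3:**
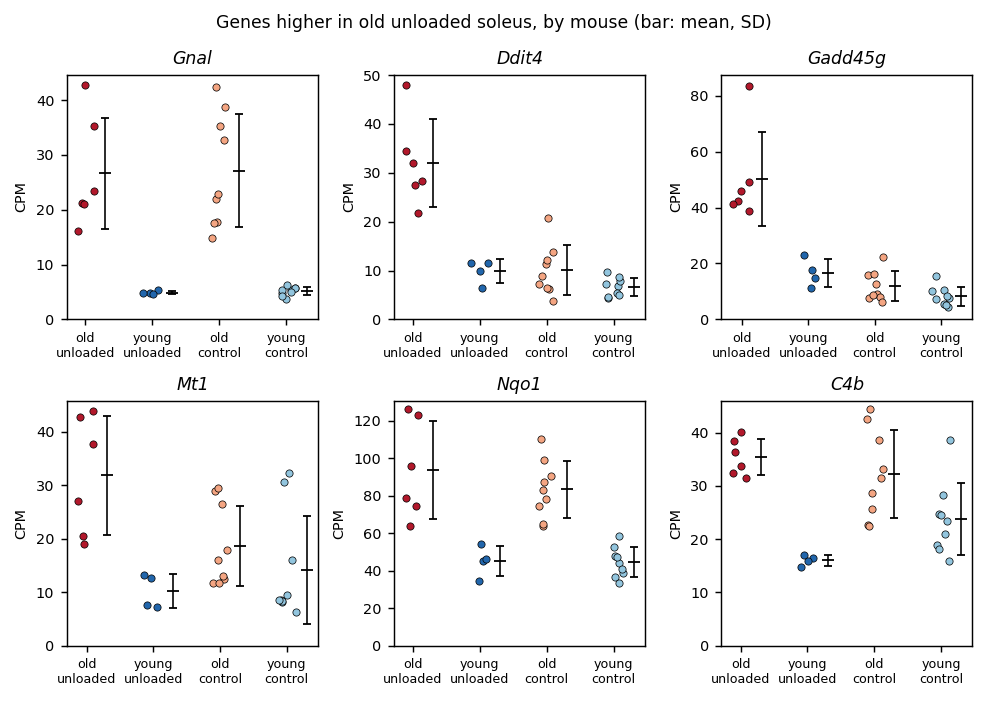
Level in CPM (y axis, from 0) of 6 genes that were higher in old unloaded soleus, in each mouse of the unloaded and control groups. Points are mice and the black bar is the mean ± SD. For Gnal and Nqo1 the old mice are high with and without unloading, while for Ddit4 and Gadd45g the old unloaded mice lie above the mice of the other groups shown, although the difference between the age effects was not called.

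Many genes of fast fibres and of glycolysis were lower in old unloaded soleus. In the fast fibre list 7 of 15 genes fell, beside 5.16% of all genes, and 0 rose, with a median of -0.44. In controls 11 fell, beside 11.6% of all genes. Mybpc2, the fast form of myosin-binding protein C, lies on chromosome 7, 44501699 to 44524670 (mm10, as deposited). It was at 13.9 to 209.8 CPM (median 40.0) in old mice, against 341, 499, 303 and 373 CPM in young mice. It fell by 2.26 ± 0.68 (adjusted p = 0.0284). The groups stood apart, but the old mice spread widely, with mice 4 and 6 well above the other 4. The age difference of Mybpc2 in controls, -3.07, was called as well. Myoz1, a Z-disc protein of fast fibres, fell by 0.80 ± 0.14 (307 ± 67.7 and 535 ± 63.0 CPM in old and young). Casq1, the fast calcium store protein calsequestrin 1, fell by 0.55 ± 0.10 (299.8 ± 36.4 and 439.7 ± 70.0 CPM). The fast troponins Tnnc2 and Tnnt3 fell by 0.44 ± 0.11 and 0.44 ± 0.11. Mybpc2 lost its call without old mouse 1, 2, 3 or 5 or young mouse 2 (adjusted p 0.0544 to 0.0825). Tnnc2 lost it without young mouse 2 (adjusted p = 0.0595). Tnnt3 lost it without young mouse 2 (adjusted p = 0.0559). The list's count of falls was 2 without young mouse 2, and also 2 without both mice high in Alb.

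The myosin heavy chains Myh1, Myh2, Myh4 and Myh7 were not called in the fit of all groups. Myh4, of the fastest fibres (type 2B), was at 213 to 3262 CPM (median 767) in old mice, against 3443, 7443, 5507 and 7003 CPM in young mice. The groups did not overlap, yet the difference of -2.38 ± 1.00 had an adjusted p of 0.127. Myh1 (type 2X) was at 14076 to 32266 CPM (median 20635) in old mice and 23453, 35771, 42620.2 and 37204 CPM in young mice. The difference was -0.68 ± 0.39 (adjusted p = 0.291). Old mice 1, 2 and 4, at 14105, 14541 and 14076 CPM, lay below every young mouse, while old mice 3, 5 and 6 lay inside the young range. Myh4 was called with only the groups compared in the fit (adjusted p = 0.0396). Myh2 (type 2A) differed by 0.63 ± 0.24 and Myh7 (slow) by 0.34 ± 0.15, with adjusted p of 0.0988 and 0.14. Myh2 was called without old mouse 5 or 6 (adjusted p = 0.014 and 0.0173). In the slow fibre list 1 of 14 genes rose, beside 4.64% of all genes, and 0 without both mice high in Alb. The called gene was Casq2, the slow and cardiac calsequestrin (0.47 ± 0.14). All 14 had a positive value and the median was 0.22. In controls 8 rose, beside 12.1% of all genes. Casq2 lost its call without old mouse 2 or 4 or young mouse 2 or 3 (adjusted p 0.0563 to 0.146). The myosin heavy chain genes are alike in sequence and can share reads of this length.

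Many glycolytic enzymes were lower in the same muscles. Of 17 genes 9 fell and 1 rose (median -0.30), beside 5.16% and 4.64% of all genes. In controls 11 fell, beside 11.6% of all genes. Aldoa, muscle aldolase, was at 2523 to 3857 CPM (median 3080.1) in old mice, against 4199.7, 5319, 5074 and 4832 CPM in young mice, with no overlap. The fall was 0.62 ± 0.11 (adjusted p = 0.000486). Lactate dehydrogenase A (Ldha) fell by 0.59 ± 0.11, triose phosphate isomerase (Tpi1) by 0.48 ± 0.09 and muscle phosphoglycerate mutase (Pgam2) by 0.41 ± 0.09. Muscle glycogen phosphorylase (Pygm) fell by 0.64 ± 0.14 and the muscle enolase Eno3 by 0.58 ± 0.14. The rise was that of Eno1, the enolase of most other cells (0.83 ± 0.23). Eno1 lost its call without old mouse 1 or young mouse 1 or 4 (adjusted p 0.052 to 0.0896). Slc16a3, the lactate exporter of fast fibres, was among the 12 largest falls (-1.30 ± 0.35, adjusted p = 0.0152). It was at 5.53 to 16.6 CPM (median 8.01) in old mice and 21.6, 23.7, 22.4 and 22.8 CPM in young mice, without overlap. Its age difference in controls, -1.84, was called as well. The count of falls was 6 without young mouse 2 and 5 without both mice high in Alb.

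Several large falls were in proteins of the fibre membrane and its signalling. Aqp4, the water channel of the muscle fibre membrane, was at 3.56 to 13.9 CPM (median 6.87) in old mice, against 24.2, 42.5, 22.0 and 19.3 CPM in young mice. Every old mouse lay below every young one, and the fall was 1.75 ± 0.33 (adjusted p = 0.000769). In controls the age difference of Aqp4 was -0.63 ± 0.24 (adjusted p = 0.0557), and the difference between the age effects was -1.13 ± 0.41 (unadjusted p = 0.00912, adjusted p = 0.369). Nos1, the neuronal nitric oxide synthase held at the same membrane, fell by 1.20 ± 0.38 (11.8 ± 7.01 and 27.2 ± 3.32 CPM in old and young). Ky, a muscle protein whose loss causes kyphoscoliosis in mice, fell by 1.09 ± 0.27 (25.7 ± 3.73 and 54.8 ± 5.70 CPM). Plcd4, a phospholipase C, fell by 1.03 ± 0.21 and Hr, a nuclear corepressor, by 1.03 ± 0.19 (7.24 ± 1.29 and 14.8 ± 1.10 CPM). Nos1 lost its call without old mouse 1, 2, 3 or 4 or any 1 of the 4 young mice (adjusted p 0.0533 to 0.102). The other 4 genes were called with any 1 mouse left out. In controls Nos1, Ky, Plcd4 and Hr were called as well, with age differences of -1.07, -0.78, -0.89 and -1.30.

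**Figure D4:**
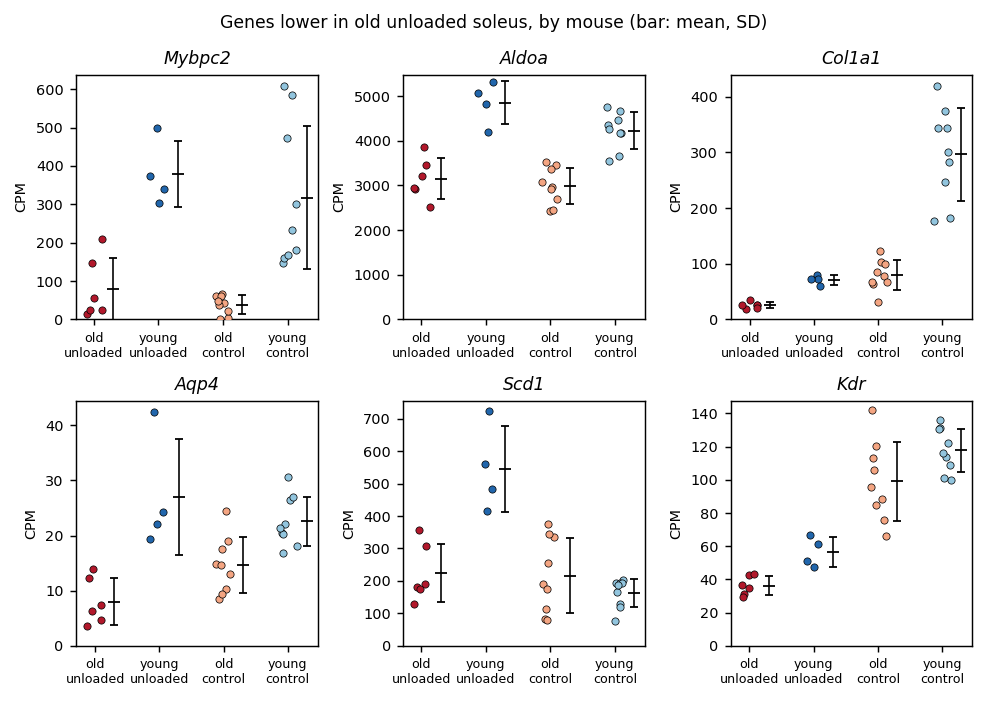
Level in CPM (y axis, from 0) of 6 genes that were lower in old unloaded soleus, in each mouse of the unloaded and control groups. Points are mice and the black bar is the mean ± SD. Scd1 is higher in the 4 young unloaded mice than in any other mouse shown, and the young unloaded mice lie below all young controls for Col1a1.

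Many collagen and other matrix genes were lower in old unloaded soleus. Of 35 genes 14 fell, beside 5.16% of all genes, and 0 rose, with a median of -0.48. Col1a1, the main chain of fibrillar collagen I, lies on chromosome 11, 94936224 to 94953043 (mm10, as deposited). It was at 19.1 to 34.0 CPM (median 25.2) in old mice, against 79.6, 73.4, 59.1 and 71.8 CPM in young mice and without overlap. It fell by 1.50 ± 0.31 (adjusted p = 0.00192), its partner chain Col1a2 by 0.91 ± 0.25 and the collagen III gene Col3a1 by 1.11 ± 0.31 (86.3 ± 17.5 and 186 ± 33.0 CPM). Collagens of basement membranes and of the fibre surface fell as well, among them Col4a2 (-0.55 ± 0.10), Col6a1 (-0.66 ± 0.13) and Col15a1 (-1.05 ± 0.16, adjusted p = 7.91e-05). The collagen-binding glycoprotein Sparc (-0.62 ± 0.16) and the gelatinase Mmp2 (-0.69 ± 0.18) fell too. Genes of the same list that did not pass the test included Timp1 (0.88 ± 0.60), Tnc (0.37 ± 0.49) and Postn (0.01 ± 0.40).

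The same list was lower with age in controls, where 24 genes fell (median -0.61), beside 11.6% of all genes. There Col1a1 stood at 79.5 ± 26.7 CPM in old and 297 ± 83.5 CPM in young mice (SD, n = 9 each). Markers of fibro-adipogenic progenitors, the muscle's collagen-making stromal cells, moved with it: 6 of 15 fell after unloading, beside 5.16% of all genes. In controls 9 of the 15 fell, beside 11.6% of all genes. The medians were alike at -0.30 after unloading and -0.29 in controls. The summed level of these markers was 1037 to 1267 CPM in old and 1487 to 1596 CPM in young unloaded mice, with no defining marker at 0. Their part in the matrix result was not tested. Hic1, a transcription factor of quiescent stromal progenitors, was at 4.58 to 6.46 CPM (median 5.33) in old mice, against 10.9, 10.7, 10.1 and 9.71 CPM in young mice. It fell by 0.96 ± 0.15 (adjusted p = 0.00017). Pdgfra, the receptor that marks these cells, fell by 0.39 ± 0.11 and the surface glycoprotein Cd34 by 0.41 ± 0.09. Of 12 tendon genes 2 fell: Chad, a cartilage and tendon matrix protein (-1.06 ± 0.26, with 1 young mouse inside the range of the old), and Cilp2 (-1.43 ± 0.33). In controls 8 of the 12 tendon genes fell. The stromal count was 3 without young mouse 1 and 4 without old mouse 5 or 6. Without both mice high in Alb the counts were 5 for matrix, 3 for stromal and 1 for tendon genes. Col1a2 lost its call without young mouse 1 or 2 (adjusted p = 0.0506 and 0.0595). Col3a1 lost it without young mouse 4 (adjusted p = 0.0648). Pdgfra lost it without old mouse 5 or 6 or young mouse 1 (adjusted p 0.0502 to 0.123). Mmp2 lost it without young mouse 2 (adjusted p = 0.0682).

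Several vessel genes were lower too. Of 21 endothelial genes 6 fell and 1 rose, beside 5.16% and 4.64% of all genes. In controls 7 fell and 1 rose, beside 11.6% and 12.1% of all genes. The medians were alike at -0.20 after unloading and -0.19 in controls. Kdr, the main receptor for VEGF-A, was at 29.3 to 43.0 CPM (median 35.6) in old mice, against 66.8, 61.4, 47.2 and 50.9 CPM in young mice. It fell by 0.64 ± 0.16 (adjusted p = 0.00963), with no overlap. The endothelial cadherin Cdh5 fell by 0.46 ± 0.11 and the transcription factor Erg by 0.38 ± 0.09. Erg was not called with the most abundant transcript in place of the gene sum (adjusted p = 0.65). The rise after unloading was that of Lyve1, a marker of lymphatic vessels that also stands in the macrophage list. Among 14 smooth muscle and pericyte genes 4 fell, beside 5.16% of all genes, and 2 fell in controls, beside 11.6%. The falls after unloading were led by the potassium channel Kcnj8 (-0.58 ± 0.09, adjusted p = 9.78e-05). Others were Lmod1 (-0.69 ± 0.15), which builds smooth muscle actin filaments, and the pericyte receptor Pdgfrb (-0.37 ± 0.09). The count of endothelial falls was 3 without old mouse 4, young mouse 2 or young mouse 3 and also without both mice high in Alb. Their summed level was 970.3 to 1087 CPM in old and 1117 to 1278 CPM in young unloaded mice.

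**Figure D5:**
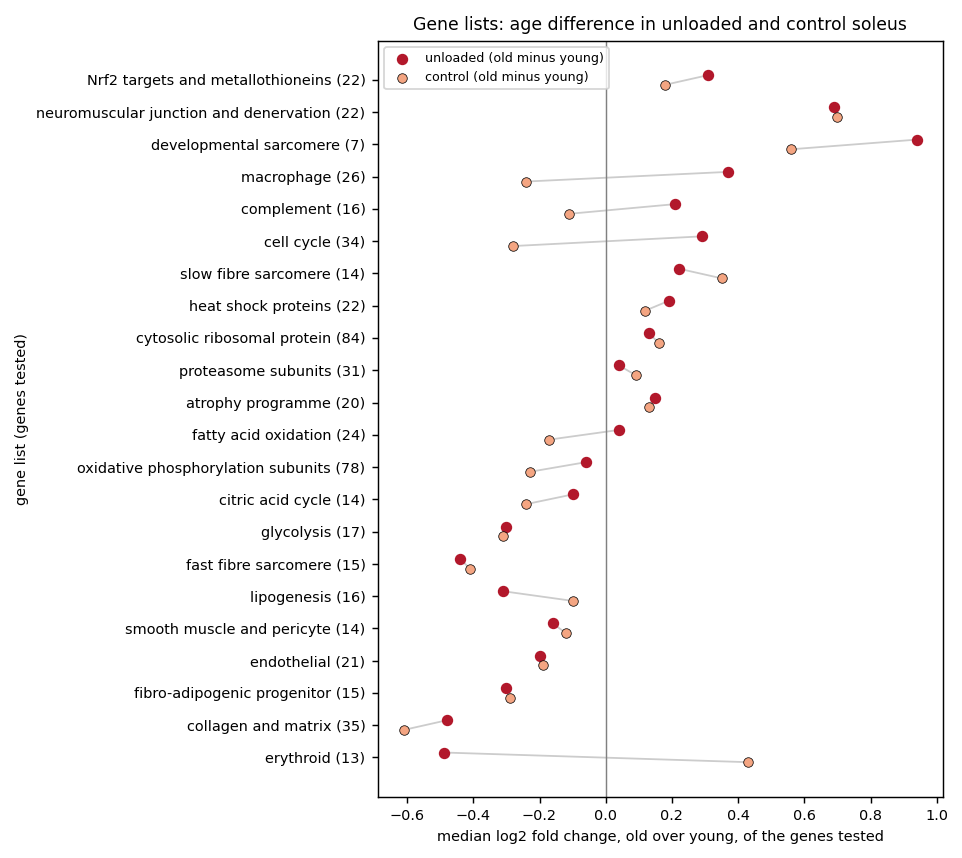
Median log2 fold change of old over young for the tested genes of 22 lists (number tested in brackets) in unloaded soleus (red) and in control soleus (light orange). A median is a description and carries no test. The fast fibre and glycolysis lists have nearly the same median in both, while the macrophage, complement, cell cycle, fatty acid oxidation and erythroid lists have medians of opposite sign.

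Some genes of the neuromuscular junction and of denervated fibres were higher in old unloaded soleus. After unloading 4 of 22 rose, beside 4.64% of all genes, and 0 fell. In controls, with more mice, 16 rose, beside 12.1% of all genes, while the medians were alike at 0.69 and 0.70. Musk, the kinase that gathers acetylcholine receptors, was at 104 to 154 CPM (median 110.2) in old mice, against 52.8, 64.4, 72.2 and 80.9 CPM in young mice, apart in every mouse. It rose by 0.79 ± 0.17 (adjusted p = 0.00227). Dok7, the adaptor that activates Musk, rose by 0.67 ± 0.15 (13.8 ± 2.81 and 8.71 ± 0.923 CPM). Gdf5, a secreted BMP-family factor known in mice to limit atrophy after denervation, was at 0.395 to 6.26 CPM (median 4.25) in old mice, against 0.160, 0.149, 0.143 and 0.0634 CPM in young mice. Its rise of 4.72 ± 1.22 starts from a level of few reads. Ncam1, an adhesion molecule that spreads over denervated fibres, rose by 0.76 ± 0.23, with young mice inside the old range. Ncam1 lost its call without old mouse 2, 4 or 6 or young mouse 1, 2 or 3 (adjusted p 0.054 to 0.127). The receptor subunit Chrna1 (0.73 ± 0.29, adjusted p = 0.11) and the regulators Myog (1.01 ± 0.59) and Runx1 (0.76 ± 0.54) were not called after unloading. With only the groups compared in the fit the count was 9, with DESeq2 it was 7, without both mice high in Alb it was 2. Musk was not called with the most abundant transcript in place of the gene sum (adjusted p = 0.179). Embryonic sarcomere genes had 2 rises of 7, Myl4 and the cardiac and embryonic troponin Tnnt2 (0.80 ± 0.25). Tnnt2 lost its call without old mouse 2, 3 or 4 or young mouse 2, 3 or 4 (adjusted p 0.0511 to 0.14). It was also not called with the most abundant transcript (adjusted p = 0.215) or with only the groups compared in the fit (adjusted p = 0.0518).

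Few immune genes were called. Of 26 macrophage genes 3 rose, beside 4.64% of all genes, and 23 had a positive value (median 0.37). In controls 1 fell and the median was -0.24. In the direct test 12 of the 26 were more positive after unloading at an unadjusted p under 0.05. That share stands beside 4.96% of all genes, and 0 were called after adjustment. Cd163, the haemoglobin scavenger receptor of resident macrophages, was at 20.3 to 28.8 CPM (median 25.0) in old mice, against 14.4, 17.3, 17.3 and 11.4 CPM in young mice. It rose by 0.72 ± 0.17 (adjusted p = 0.00771) without overlap. Gpnmb, a glycoprotein of lipid-laden macrophages, rose by 0.70 ± 0.23 and Lyve1 by 0.74 ± 0.24. Gpnmb lost its call without old mouse 2, 3 or 4 or any 1 of the 4 young mice (adjusted p 0.066 to 0.141). Lyve1 lost it without old mouse 1, 2, 3 or 4 or young mouse 1, 3 or 4 (adjusted p 0.052 to 0.174). The general marker Cd68 differed by 0.35 ± 0.33 (adjusted p = 0.555). The list's summed level was 249 to 366 CPM in old and 187 to 254 CPM in young unloaded mice, ranges that overlapped. Cd163 was called with any 1 mouse left out. The count of macrophage rises was 1 without old mouse 2, 3 or 4 or young mouse 1, 3 or 4, and 9 with only the groups compared in the fit.

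Complement and chemokine genes added a few calls. Of 16 complement genes 2 rose and 0 fell (median 0.21). Of 24 chemokine and cytokine genes 2 rose and 1 fell (median -0.01), with 12 positive and 12 negative values. Among all genes 4.64% rose and 5.16% fell. Without both mice high in Alb 1 complement gene and 1 chemokine or cytokine gene rose. In controls 1 complement gene rose and the median was -0.11. In the direct test 6 of the 16 complement genes were more positive after unloading at an unadjusted p under 0.05. That share stands beside 4.96% of all genes, and 0 were called after adjustment. C4b, the fourth component of complement, was at 31.5 to 40.2 CPM (median 35.0) in old mice, against 17.1, 16.4, 15.9 and 14.7 CPM in young mice. It rose by 1.14 ± 0.22 (adjusted p = 0.000945). The lowest old mouse stood well above the highest young one. Its near-identical neighbour C4a was called too (1.43 ± 0.39), and the 2 genes can share reads. C4a lost its call without young mouse 1 (adjusted p = 0.0751). Ccl8, a monocyte chemokine, rose by 2.71 ± 0.60 at low levels, 0.958 to 1.98 CPM in old and 0.119 to 0.294 CPM in young mice. Cxcl13, which attracts B cells, rose by 2.30 ± 0.63 (0.275 to 2.12 CPM in old and 0.187 to 0.418 CPM in young mice). Cxcl13 lost its call without young mouse 1 or 4 (adjusted p = 0.0602 and 0.0519). Of 26 interferon-stimulated genes 1 rose, Oasl1 (1.87 ± 0.48), beside 4.64% of all genes. In controls, with more mice, 10 rose, beside 12.1% of all genes. After unloading 22 of the 26 had a positive value, and the medians were 0.43 after unloading and 0.53 in controls. In the direct test of the difference 0 of the 26 had an unadjusted p under 0.05.

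The ubiquitin ligases that serve as markers of wasting were not called. Fbxo32 (atrogin-1) and Trim63 (MuRF1) were at 924 ± 168 and 184 ± 59.3 CPM in old and 912 ± 236 and 197 ± 50.9 CPM in young unloaded mice. The differences were 0.02 ± 0.16 and -0.10 ± 0.24 (adjusted p = 0.964 and 0.857). Mstn, the growth inhibitor myostatin, differed by -0.71 ± 0.37 (adjusted p = 0.236) and Ppargc1a, the coactivator of mitochondrial genes, by -0.07 ± 0.43 (adjusted p = 0.951). Of 20 genes of the atrophy list 5 rose and 1 fell, beside 4.64% and 5.16% of all genes. Ddit4, Mt1 and Mt2, described above, were among the rises. The count of rises was 1 without young mouse 2, 2 without old mouse 3 or young mouse 1 or 3, and 3 without old mouse 1 or 4 or young mouse 4. Without both mice high in Alb it was 1. Proteasome subunits had 3 rises of 31, Psmb1 among them (0.29 ± 0.06), beside 4.64% of all genes. Autophagy genes had 1 fall of 23, beside 5.16% of all genes. The count of proteasome rises was 1 without young mouse 1 and also without both mice high in Alb. With edgeR 0 of 20 chaperones of the endoplasmic reticulum were called (2 at an unadjusted p under 0.05, 0 with DESeq2). Of 22 heat shock proteins 0 were called (4 unadjusted, 1 with DESeq2). Sesn1, a stress-induced inhibitor of mTORC1, rose by 0.73 ± 0.14 (71.3 ± 11.4 and 42.9 ± 7.89 CPM; adjusted p = 0.829 with the most abundant transcript alone). The p53 target Cdkn1a was called in controls (1.57 ± 0.31) and not after unloading (0.86 ± 0.43, adjusted p = 0.211).

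Mitochondrial genes were lower with age in control soleus, and few of them were called after unloading. Of 78 subunits of oxidative phosphorylation 1 fell, Ndufab1 (-0.33 ± 0.10), with a median of -0.06, and 0 fell without both mice high in Alb. In controls 62 fell, with a median of -0.23. Of all genes 5.16% fell after unloading and 11.6% in controls. Ndufab1 lost its call without old mouse 2 or 6 or young mouse 2 or 3 (adjusted p 0.0528 to 0.165). In the direct test of the difference 22 of these 78 genes were more positive after unloading at an unadjusted p under 0.05, beside 4.96% of all genes, and 0 were called after adjustment. Cox4i1, a core subunit of cytochrome oxidase, differed by 0.02 ± 0.08 after unloading and by -0.31 ± 0.06 in controls (unadjusted p of the difference 0.00271). The citric acid cycle list had 2 falls of 14 after unloading, Idh3a (-0.50 ± 0.12) and Sucla2 (-0.30 ± 0.08), and 11 in controls. After unloading it had 0 falls without both mice high in Alb. Sucla2 lost its call without young mouse 2 (adjusted p = 0.0697). Of 24 genes of fatty acid oxidation 0 were called with edgeR after unloading (0 at an unadjusted p under 0.05, 0 with DESeq2). There were 7 falls in controls. The mitochondrial ribosome had 3 falls of 78 after unloading, beside 5.16% of all genes, and 1 without old mouse 6 or young mouse 4. In controls it had 27, beside 11.6% of all genes. The medians of this list were -0.02 after unloading and -0.09 in controls. Counts in controls rest on more mice, 9 of each age against 6 old and 4 young. Tufm, the mitochondrial elongation factor, had 54.9 ± 3.64 CPM in old and 53.3 ± 1.36 CPM in young unloaded mice, and 81.9 ± 4.18 CPM in old and 100.1 ± 6.74 CPM in young controls. Its age effects differed by 0.33 ± 0.07 (unadjusted p = 2.38e-05, adjusted p = 0.119; called with DESeq2).

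A few genes of fat synthesis were lower in old unloaded soleus, 3 of 16, beside 5.16% of all genes. In controls 2 of the 16 fell, beside 11.6% of all genes. Scd1, the desaturase that makes monounsaturated fatty acids, was at 128 to 357 CPM (median 186) in old unloaded mice, against 723, 562, 414 and 482 CPM in young unloaded mice. The fall was 1.29 ± 0.42 (adjusted p = 0.047), without overlap. In controls Scd1 stood at 217 ± 116 CPM in old and 162 ± 44.2 CPM in young mice (SD, n = 9 each). The age effects differed by -1.70 ± 0.53 (unadjusted p = 0.00273, adjusted p = 0.281). Acly, which supplies acetyl-CoA for fat synthesis, fell by 0.62 ± 0.15 (37.0 ± 3.46 and 56.9 ± 12.4 CPM). Its age effects differed by -0.82 ± 0.18 (unadjusted p = 8.33e-05, adjusted p = 0.188). This difference was called with DESeq2 (adjusted p = 0.0406) and with only the groups compared in the fit (adjusted p = 0.0188). Elovl6, a fatty acid elongase, fell by 1.10 ± 0.33, while Fasn, the fatty acid synthase, differed by -1.23 ± 0.45 (adjusted p = 0.0782). The list's summed level was 1344 to 1765 CPM in old and 1749 to 2227 CPM in young unloaded mice, ranges that overlapped. In the direct test 6 of the list were more negative after unloading at an unadjusted p under 0.05, beside 4.94% of all genes, and 0 were called after adjustment. Adipocyte markers were not called but for Cidea, a lipid droplet protein (1.06 ± 0.20). Adipoq, the fat hormone adiponectin, was at 6.53 to 17.2 CPM in old and 9.55 to 15.6 CPM in young unloaded mice. The summed list of 15 genes was at 1999 to 4252 CPM in old and 2491 to 3570.3 CPM in young mice, with no defining marker at 0. The part of fat tissue in the result was not tested. Scd1 lost its call without old mouse 1, 3, 4 or 6 or any 1 of the 4 young mice (adjusted p 0.0584 to 0.139). Acly lost it without young mouse 2 (adjusted p = 0.0616). Elovl6 lost it without old mouse 1, 3 or 4 or young mouse 1, 2 or 4 (adjusted p 0.0519 to 0.0935). The count of falls was 1 without old mouse 1, 3 or 4 or young mouse 1 or 4, 2 without old mouse 6 or young mouse 3, 5 without old mouse 5 and 0 without young mouse 2, and also 0 without both mice high in Alb. With the most abundant transcript Scd1 and Acly were not called (adjusted p = 0.0566 and 0.0845).

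Among genes that averaged 8 CPM or more in the unloaded mice, the 8 smallest p for a difference between the age effects were those of Tufm, Acly, Ap1s3, Ston2, Arhgap20, Tnfrsf10b, Fzd6 and Pou2f1. Each had an adjusted p above 0.05 in the main edgeR fit. Ap1s3, an adaptor subunit of vesicle coats, was at 7.91 to 9.64 CPM (median 8.52) in old unloaded mice and 9.80, 11.0, 9.69 and 10.7 CPM in young unloaded mice (-0.26 ± 0.09, adjusted p = 0.0524). In controls it rose with age by 0.30 ± 0.07, and the effects differed by -0.57 ± 0.11 (adjusted p = 0.0805). This difference was called with DESeq2 (adjusted p = 0.00923) and with only the groups compared in the fit (adjusted p = 0.0191). Ston2, an endocytic adaptor, fell by 0.55 ± 0.10 after unloading (85.2 ± 5.14 and 124 ± 10.3 CPM in old and young) and differed by -0.01 ± 0.07 in controls. The difference between its age effects was called with only the groups compared in the fit (adjusted p = 0.0188). Arhgap20 fell by 0.65 ± 0.14 and the death receptor gene Tnfrsf10b by 0.26 ± 0.07. The difference between the age effects of Arhgap20 was called with the mouse number as a block (adjusted p = 0.0296). The Wnt receptor Fzd6 rose by 0.28 ± 0.08 and the transcription factor Pou2f1 differed by -0.14 ± 0.05 (adjusted p = 0.0736). Tnfrsf10b lost its call without young mouse 2 (adjusted p = 0.0628). Fzd6 lost it without old mouse 3 or 4 or young mouse 1, 2 or 3 (adjusted p 0.06 to 0.136). With the most abundant transcript its difference was 0.09 (adjusted p = 0.766).

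The 3 genes called in opposite directions in unloaded and control muscle, outside the rule for named genes and chosen after their values were seen, belong to dividing cells. Aspm, Aurkb and the histone gene Hist1h3b, all needed in mitosis or DNA replication, rose with age after unloading by 1.52 ± 0.47, 2.66 ± 0.75 and 3.10 ± 1.01. They fell with age in controls (-0.77 ± 0.28, -1.15 ± 0.43 and -1.34 ± 0.48). Their levels were low, so that the fitted sizes are rough. Aspm was at 0.493 to 0.922 CPM (median 0.621) in old unloaded mice and 0.267, 0.239, 0.172 and 0.222 CPM in young unloaded mice. Aurkb had 0 reads in young mice 1 and 4 and Hist1h3b in young mice 2 and 4. The difference between the effects had an adjusted p of 0.195 for Aspm, 0.188 for Aurkb and 0.195 for Hist1h3b. That of Aspm was called with DESeq2 (adjusted p = 0.0331) and with only the groups compared in the fit (adjusted p = 0.0429). In the cell cycle list 2 of 34 rose after unloading, Aurkb and the spindle checkpoint kinase Bub1b (0.98 ± 0.25), a share near the 4.64% of all genes. The count was 1 without young mouse 1, 2 or 4 and also without both mice high in Alb. In controls 7 of the list fell. In the direct test 13 were more positive after unloading at an unadjusted p under 0.05, beside 4.96% of all genes, and 0 were called after adjustment. Aurkb lost its call without young mouse 1, 2 or 4 (adjusted p 0.0509 to 0.0795). Hist1h3b lost it without old mouse 2, 3, 5 or 6 or any 1 of the 4 young mice (adjusted p 0.0519 to 0.131). Aspm lost it without old mouse 2 or any 1 of the 4 young mice (adjusted p 0.0622 to 0.0941). Hist1h3b has near-identical copies in the same cluster, which makes its value uncertain.

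Red cell genes had a lower summed level in old than in young unloaded soleus, a description with no test, and 1 of 13 passed the test. The 13 erythroid genes tested had a summed level of 224 to 364 CPM in old and 392 to 479 CPM in young unloaded mice, without overlap. It was 298 to 800.3 CPM in old and 299 to 458 CPM in young controls. The alpha globin gene Hba-a1 was at 12.6 to 28.0 CPM (median 25.0) in old mice, against 38.1, 36.4, 34.0 and 38.3 CPM in young mice. The difference of -0.65 ± 0.28 was not called (adjusted p = 0.14). With only the groups compared in the fit Hba-a1 was called (adjusted p = 0.0288) and 4 genes of the list fell. Globin genes share reads with their near-identical copies, and the called gene was Bpgm (-0.47 ± 0.10), which red cells and muscle both express. In the direct test 9 of the 13 genes were more negative after unloading at an unadjusted p under 0.05, beside 4.94% of all genes, and 0 were called after adjustment. The summed level stood beside the endothelial falls, and its part in them was not tested.

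A few single genes of other lists stood out. Nr1d1, the clock repressor REV-ERB alpha, was at 28.9 to 56.9 CPM (median 38.5) in old mice, against 67.9, 77.1, 75.2 and 70.7 CPM in young mice, apart in every mouse. It fell by 0.88 ± 0.23 (adjusted p = 0.0141), against -0.09 ± 0.17 in controls. The difference between the age effects was -0.79 ± 0.29 (unadjusted p = 0.0108, adjusted p = 0.373). All mice were killed at about the same hour after a short fast, per the study's design text. Among growth factor genes Grb10, an adaptor that dampens insulin and IGF1 receptor signals, rose by 0.44 ± 0.11. Acvr2b, the receptor of myostatin and activin, fell by 0.53 ± 0.14 (47.7 ± 6.77 and 69.0 ± 10.9 CPM). Acvr2b lost its call without young mouse 4 (adjusted p = 0.0562). Zfp36, which destabilises cytokine messages, rose by 0.88 ± 0.22. Krt18, a keratin, was at 0.282 to 23.4 CPM in old and 0.0267 to 0.299 CPM in young mice (5.29 ± 1.55), with the epidermal keratins Krt5 and Krt14 at 0 reads in all 10 libraries. Krt18 lost its call without old mouse 6 or any 1 of the 4 young mice (adjusted p 0.0612 to 0.0798). Cytosolic ribosomal protein genes had 7 rises and 1 fall of 84, beside 4.64% of all genes that rose. In controls, with more mice, 42 rose, beside 12.1% of all genes. The medians were alike at 0.13 after unloading and 0.16 in controls, and 79 of the 84 had a positive value after unloading. The count of rises ran from 0 without young mouse 3 to 12 without old mouse 3. It was also 0 without both mice high in Alb.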

How the data were processed

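Per the labels, ribosomal RNA was removed from the total RNA of 1 soleus per mouse, and 1 flow cell gave single-end reads of 50 bases. The labels name 2 library kits, 1 of them stranded, and the sources used here do not say if counting took strand into account, so a gene and its antisense partner cannot be told apart. TopHat2 2.0.1, TopHat, Partek 6.6, DESeq and mm10 stand in the submitters' processing notes with no role. The deposited table lists 31668 transcripts, and per the file headers each library has a column of reads and a column of RPKM (reads per kilobase and per M reads), which was not used. The read columns hold estimated counts, which the authors shared out among the transcripts of a gene before they were deposited. Summed per gene, 94.9% were whole to within 0.01 reads.

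The sums were rounded, after 23 symbols turned into dates by a spreadsheet had been restored through their transcripts. This gave 21156 genes and totals of 32.0 to 37.9 M reads in the 36 libraries. Of these genes 15031 passed filterByExpr. After TMM scaling, edgeR 4.0.16 on R 4.3.3 (glmQLFit, then glmQLFTest, with limma 3.58.1) fitted 1 model with a term for each group, which left 30 residual degrees of freedom and a common biological coefficient of variation of 0.149. The 3 comparisons were old minus young unloaded, old minus young control, and the difference between them. Each was adjusted by Benjamini-Hochberg over all genes tested, at 0.05. SE is the absolute log2 fold change divided by the root of F, and CPM rests on TMM-scaled totals. The labels give no batch, and equal mouse numbers did not pair the libraries. Summed marker levels are described with no test, although a test had been planned. The fit was checked on simulated counts.

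The 42 gene lists and 26 tracked genes were chosen with earlier results of these data known. Genes are named by a rule: the 12 largest rises and falls among called, not predicted genes averaging 8 CPM or more, up to 4 called members of each list by adjusted p, the tracked genes, and the 8 smallest p of the difference between the age effects. Further list members were named after their values were seen. Near-identical genes (globins, C4a and C4b, histones, ribosomal proteins, myosin heavy chains) can split reads of this length, which makes their values less certain. The alternatives were the size factors of DESeq2 1.42.0, its Wald test, filtering less or more (5 CPM in 4 or more libraries), fitting the compared groups alone, the mouse number as a block, the most abundant transcript in place of the sum, leaving out each unloaded library, and leaving out both unloaded libraries with Alb above 20 CPM. Promoter sequences are from RefSeq (GRCm38.p6).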

Additional observations from a re-analysis of the deposited data

Results flagged for a closer look

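In each unloaded group the highest and lowest mouse was set against the others of its group for the genes named in the report. Of 232 combinations of gene and group, 11 had a mouse far from the rest, and chance gives about 1 in 20, or 11.6.

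Old mouse 6 had 36.2 CPM of Alb (0.247 to 3.89 CPM in the other old unloaded mice), 23.4 CPM of Krt18 (0.282 to 8.05 CPM) and 12.6 CPM of Hba-a1 (22.3 to 28.0 CPM). Old mouse 1 had 83.6 CPM of Gadd45g (38.6 to 49.0 CPM in the others) and 154 CPM of Musk (104 to 116 CPM). Old mouse 3 had 76.7 CPM of Pdgfrb (63.9 to 66.7 CPM), and old mouse 4 had 92.7 CPM of Sesn1 (62.2 to 72.6 CPM).

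Among the young unloaded mice, mouse 2 had 356 CPM of Cox4i1 (324 to 327 CPM in the other young mice) and 42.1 CPM of Pou2f1 (46.6 to 47.1 CPM). Young mouse 3 had 2.52 CPM of Elovl6 (4.41 to 4.72 CPM), and young mouse 1 had 79.2 CPM of Pdgfra (62.6 to 65.2 CPM).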

How the results depend on the processing

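The count of 1474 genes called between old and young unloaded soleus lay between 1108 and 1779 under DESeq2, its size factors, both filters, only the groups compared, the replicate block and the most abundant transcript. It ran from 789 (without young mouse 2) to 1510 (without old mouse 5) with each library left out, and was 620 without both libraries high in Alb. These fits have fewer mice, and the cause was not otherwise tested. The control count of 3561 ran from 2867 to 3780. The difference between the age effects, at 0 calls, gave 8 with DESeq2, 5 with only the groups compared, 3 with the replicate block and 0 to 1 with each library left out. Csn1s2b, a casein gene, was called under each of the first 3 and without old mouse 4. With mouse number as a block the unloaded count was 1538; deviations of same-numbered mice correlated between -0.09 and 0.02, so the numbers did not pair the mice. No printed call changed its sign, and of 91 printed called genes 45 were called under all 18 alternatives; over all genes 317 were.

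The printed genes that lost their call, with the adjusted p, were these. With the most abundant transcript they were Acly (0.0845), Erg (0.65), Fzd6 (0.766), Gpnmb (0.0593), Lgals3 (0.082), Lyve1 (0.0586), Mt2 (0.0513), Musk (0.179), Scd1 (0.0566), Sesn1 (0.829), Tnnt2 (0.215) and Tnnt3 (0.0857). With only the groups compared they were Casq2 (0.0574), Mamdc2 (0.119), Ncam1 (0.0556), Nos1 (0.0554), Tnnt2 (0.0518) and Tnnt3 (0.0518). With no filter on low counts they were Fzd6 (0.0506), Gpnmb (0.0612), Hist1h3b (0.0518), Lyve1 (0.0639), Mt2 (0.0504) and Scd1 (0.0556), and with the block Gpnmb (0.0678) and Ncam1 (0.0502). Without both libraries high in Alb 39 calls were lost (adjusted p 0.0522 to 0.244), among them Chad, Gdf5, Idh3a, Ky, Nr1d1, Pgam2, Scn3b and Sparc, which kept theirs with any 1 mouse left out. Printed genes that gained a call with only the groups compared were Ap1s3, Arrdc2, Cdkn1a, Chrna1, Fasn, Hba-a1, Myh4 and Myog. Myh4 gained one with the block (0.0286), Ap1s3 with DESeq2 and with its size factors, and Pou2f1 with DESeq2. With 1 mouse left out Ap1s3, Arrdc2, Fasn, Myh2 and Pou2f1 gained one.

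The old minus young difference in the share of reads taken by Ttn, 0.59 percentage points, ran from 0.42 to 0.85 with each library left out, and without old mouse 6 it was 0.85 (exact permutation p = 0.0317). That of Malat1, 0.00, ran from -0.03 to 0.03, and that of the 10 largest genes, -0.46, from -0.88 to -0.22. These shares use plain library totals already, so no other scaling applied. With 4 young mice, differences that miss the threshold are not shown to be absent.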

Other observations

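Markers of several other cell types were not called between old and young unloaded soleus. With edgeR 0 of 15 myelin and Schwann cell genes were called (3 at an unadjusted p under 0.05, 0 with DESeq2), and their summed level was 86.5 to 112 CPM in old and 86.4 to 96.7 CPM in young mice. Of 15 antigen presentation genes 0 were called with edgeR after unloading (1 unadjusted, 0 with DESeq2). In old against young controls 5 of them fell. Their medians were 0.22 after unloading and -0.06 in controls, and 6 were more positive after unloading at an unadjusted p under 0.05, beside 4.96% of all genes, with 0 called after adjustment.

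Nupr1, a small chromatin-bound protein induced by stress, was the 1 called gene of 17 in the integrated stress response list, beside 9.81% of all genes. It had 2.50 to 5.16 CPM (median 3.89) in old mice, against 7.93, 5.55, 5.76 and 7.01 CPM in young mice. It fell by 0.74 ± 0.16 (adjusted p = 0.00335). Arrdc2, an arrestin-domain gene that rises in disuse, was at 21.2 to 72.7 CPM (median 51.0) in old mice and 13.6, 14.3, 30.8 and 29.3 CPM in young mice (1.19 ± 0.43, adjusted p = 0.0725). It was called with only the groups compared in the fit (adjusted p = 0.0349) and without old mouse 2 (adjusted p = 0.0479). Of 13 myogenic genes 1 rose and 1 fell, beside 4.64% and 5.16% of all genes. The list's median was -0.03, and 8 of the 13 had a negative value. Tmem8c, the fusion protein myomaker, was the rise (3.38 ± 1.01), at 0.225 to 2.98 CPM in old and 0.0267 to 0.328 CPM in young mice. Tmem8c lost its call without old mouse 2 or 3 or young mouse 1, 3 or 4 (adjusted p 0.0559 to 0.0961).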
